A study of Mus musculus with 6 samples.

Results

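Collagen and laminin genes were examined in mouse MLL-AF9 leukaemia cells with and without induced loss of Chaf1b. The set held every listed gene whose symbol has the form of a collagen chain (Col, a type number, a, a chain number) or of a laminin chain (Lama, Lamb or Lamc with a number). These rules found 55 of the 35869 listed genes, 44 for collagen chains and 11 for laminin chains. The rules used symbols alone and no measured value, but the set was chosen with earlier results of these data known.

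Collagens are secreted proteins whose chains wind around each other, and the chains of a type have to be made together for the usual molecules to form. Fibrillar collagens such as types I, III and V give tendon, skin and stroma their strength, while type IV collagen forms the network of basement membranes. Laminins are the other main basement membrane proteins, each assembled from an alpha, a beta and a gamma chain. Connective tissue, endothelial and epithelial cells are the usual producers, and blood cells mostly meet these proteins through receptors such as integrins, so in leukaemia cells most of these genes belong to other lineages.

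The 3 knockout (KO) libraries came from retrovirally transformed MLL-AF9 acute myeloid leukaemia cells, a model named after a human fusion oncogene, given β-estradiol. The 3 control (WT) libraries came from such cells given vehicle, which was ethanol. Cells of both groups carried floxed Chaf1b alleles and CreERT2, a recombinase that a ligand of the oestrogen receptor activates, and grew in medium with serum, SCF, IL6 and IL3. Cells were lysed 48 hours into treatment. Since KO cells alone received β-estradiol, the deletion and the ligand cannot be told apart. The series' design text speaks of clones, without saying how many or whether replicates were separate cultures, so the spread behind each p-value may be technical.

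Values are TPM, which divides reads by transcript length and brings every library to 1 total. They are listed to 1 decimal, so that a listed 0 stands for less than 0.05 TPM. TPM keeps no depth, so the reads behind a value are unknown. Where 3 values follow each other, they belong to replicates 1, 2 and 3 of the group. Chaf1b, which encodes a part of CAF-1, a complex that places histones on new DNA, was at 17.7, 14.4 and 14.2 TPM in the KO libraries, against 48.6, 49.0 and 50.6 TPM in the WT libraries (log2 fold change -1.62, SE 0.09, limma adjusted p = 0.0058). Of 12 markers of myeloid and leukaemia cells, 11 were tested and none was at 0 in any library. Of these, 3 were higher in KO (Mpo, Elane and Cebpa) and 1 lower (Hoxa9), beside 12.9% and 6.11% of all tested genes. Cd34 was at 91.5, 83.2 and 79.8 TPM in KO and 138.2, 102.9 and 106.9 TPM in WT, without being called (limma adjusted p = 0.0526). Kit and Meis1 had every KO value above every WT value, also without being called. Ptprc, Kit, Spi1 and Itgam were above 25 TPM throughout, while Csf3r lay between 4.2 and 4.6 TPM in KO and 4.2 and 5.0 TPM in WT, and the untested Csf1r between 0.5 and 0.8 TPM in KO and 0.4 and 1.4 TPM in WT. KO replicate 1 and WT replicate 1 stood apart: Pearson's r of log2(TPM + 1) across tested genes, which are not independent replicates, was 0.998 for KO replicates 2 and 3 as well as WT replicates 2 and 3. It was 0.991 for KO replicates 1 and 2, and 0.984 for WT replicates 1 and 2. In bulk RNA, more cells that make a transcript and more transcript per cell cannot be told apart.

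Most collagen and laminin genes were silent or nearly so in both groups, and fewer were listed at 0 in KO. Genes at 0 TPM numbered 27, 23 and 22 of 55 in the KO libraries, against 32, 33 and 34 in the WT libraries. Genes at 1 TPM or more numbered 11, 12 and 12 in KO, against 9, 8 and 8 in WT. In between, above 0 and below 1 TPM, were 17, 20 and 21 genes in KO and 14, 14 and 13 in WT. None of these 3 counts overlapped between the groups. The same held for the listed genes as a whole, where 44.9%, 41.5% and 42.3% were at 0 in KO and 49.7%, 49.7% and 49.6% in WT, and 37.8%, 39.3% and 38.7% were at 1 TPM or more in KO and 36.3%, 35.9% and 35.9% in WT. Among collagen and laminin genes the shares at 0 were 49.1%, 41.8% and 40.0% in KO, against 58.2%, 60.0% and 61.8% in WT. These counts run over chosen genes and were given no p-value.

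**Figure D1:**
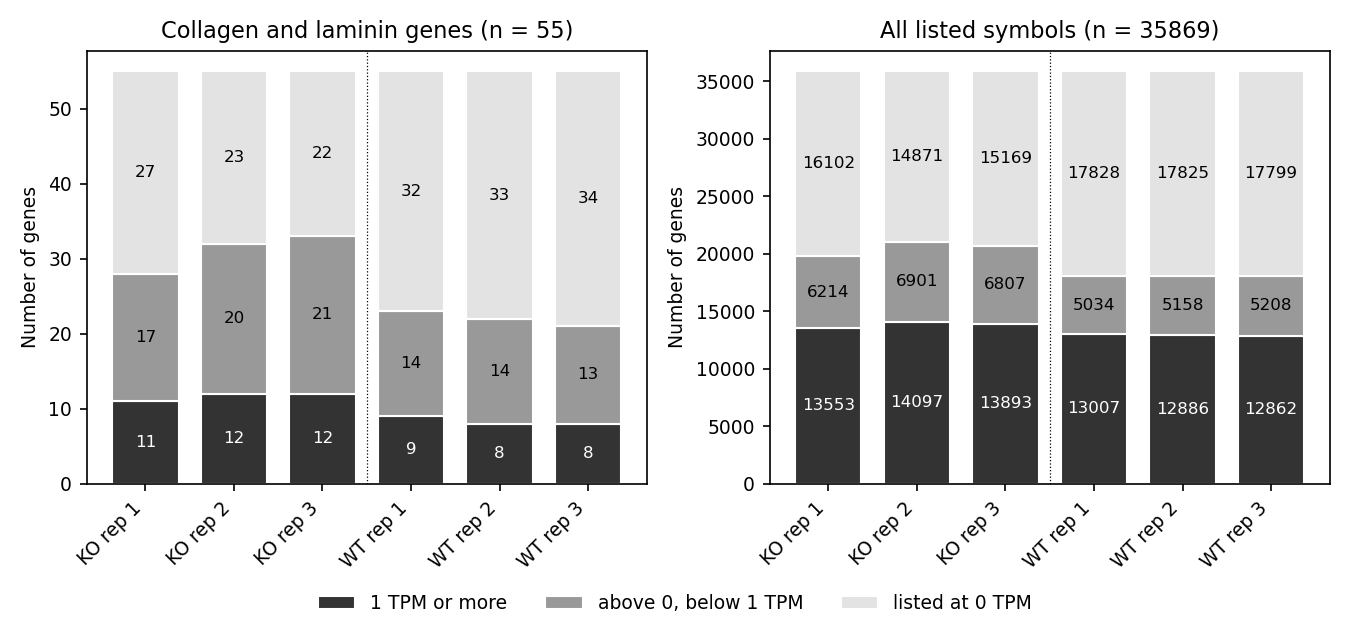
Numbers of genes (vertical axis) listed at 0 TPM, above 0 and below 1 TPM, and at 1 TPM or more, in each of 3 KO and 3 WT libraries, for the 55 collagen and laminin genes (left) and all 35869 listed genes (right). Genes at 0 numbered 22 to 27 in KO and 32 to 34 in WT on the left, and the right panel shows fewer genes at 0 in KO as well.

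Over all 6 libraries, 22 of the 55 genes were never above 0, 21 were above 0 but never at 1 TPM, and 12 reached 1 TPM in at least 1 library. Among those never above 0 were Col4a3, Col4a5, Col4a6, Col6a2, Col6a4, Col6a5, Col9a1, Col9a2, Col11a1, Col12a1, Col14a1, Lama1 and Lama4. Of the other genes, 10 were above 0 in KO libraries only and 0 in WT libraries only, where 9.29% of all listed genes were above 0 in KO only and 1.47% in WT only. A complete separation of the groups, with every KO value above every WT value, was seen for 17 of the 55 genes (30.9%), and 14.7% of all listed genes showed it. The opposite separation was seen for 2 genes, Col5a3 and Col10a1 (3.64%), where 7.53% of all listed genes showed it. The remaining 36 genes overlapped or were at 0 throughout.

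A gene was tested where at least 3 of the 6 libraries held at least 1 TPM, which left 13575 genes, 11 of them from this set. The test was limma on log2(TPM + 1), and a gene was called at a Benjamini-Hochberg adjusted p under 0.05 over all tested genes. Of the 11, 4 were higher in KO (Col4a2, Lamb2, Col1a1 and Col11a2) and 0 lower, where 12.9% of all tested genes were called higher and 6.11% lower. At an unadjusted p under 0.05, Col4a1 and Col20a1 were higher and Col5a3 and Col6a3 lower, without being called. Lamb2 and Col1a1 entered the test through their KO values alone, and Col4a1 reached 1 TPM in WT in replicate 1 only. The share called among these 11 genes is therefore no measure of the 55. In the range of mean levels from 1 to 10 TPM, where 9 of the 11 lie, 19.0% of tested genes were called higher and 1.33% lower. KO values lay entirely above WT values in 7 of the 11 genes, as in 23.4% of all tested genes, and entirely below them in 1, as in 19.5%. Quantile normalization, unlike the deposited scale, gave 9.92% higher and 12.7% lower over all tested genes, and then Col4a2, Lamb2 and Col1a1 were called higher and Col5a3 lower.

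**Figure D2:**
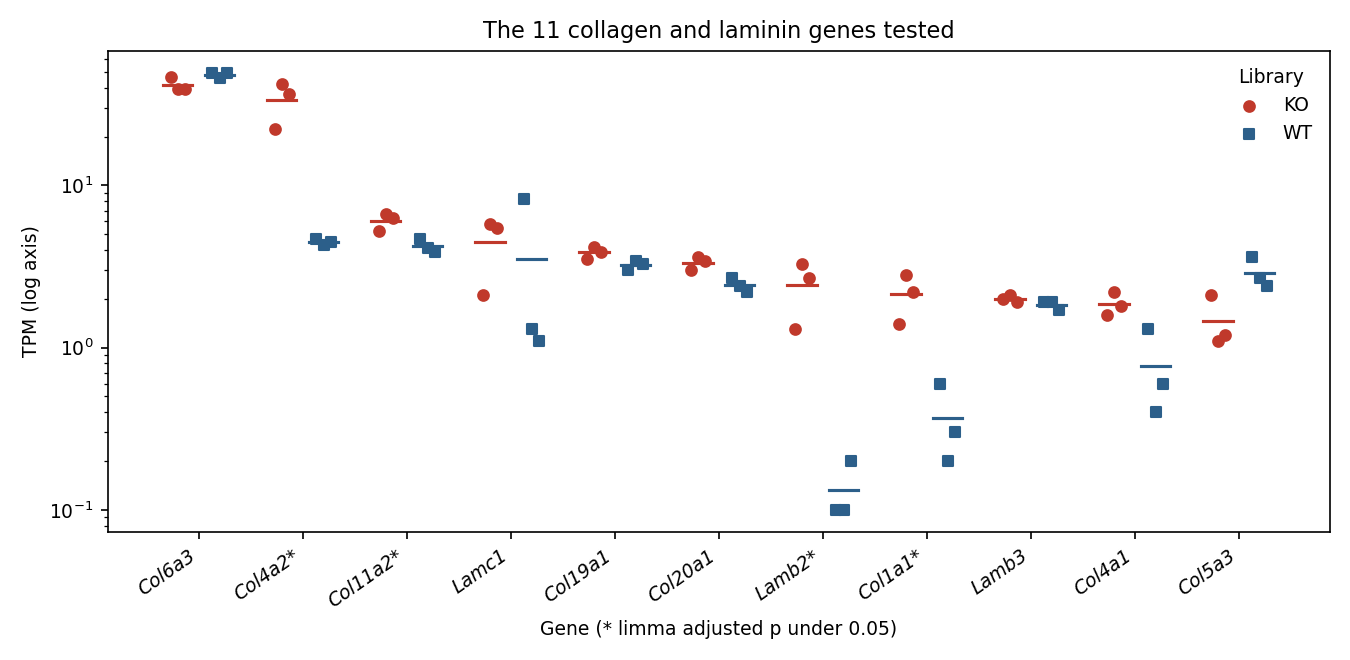
TPM (log axis) of the 11 tested collagen and laminin genes in 3 KO (circles) and 3 WT (squares) libraries, with replicates 1, 2 and 3 from left to right and bars at the group means; an asterisk marks a limma adjusted p under 0.05. KO and WT points lie apart for Col4a2, Lamb2 and Col1a1, and a single WT point at 8.2 TPM sits above every KO point of Lamc1.

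The type IV collagen gene Col4a2 rose in KO. Col4a2, the alpha-2 chain (chromosome 8, 11312805 to 11449287, RefSeq annotation of GRCm38.p6, the assembly that mm10 names), was at 22.3, 42.0 and 36.6 TPM in the KO libraries, against 4.7, 4.3 and 4.5 TPM in the WT libraries. The groups were far apart, and KO replicate 1 was the lowest KO library. The KO mean of 33.6 ± 10.2 TPM was 7.47 times the WT mean of 4.50 ± 0.20 TPM (SD, n = 3 each), a log2 fold change of 2.61 (SE 0.22, limma adjusted p = 0.00955). The call was lost without KO replicate 3 (limma adjusted p = 0.0897), WT replicate 2 (0.0533) or WT replicate 3 (0.0572), and over all alternatives the adjusted p lay between 0.000205 and 0.0897. Lamb2, Col1a1 and Col11a2 lost their calls when any 1 of these 3 libraries, or KO replicate 2, was left out. Without KO replicate 3 limma called 0 genes in the whole table, with 3381 at an unadjusted p under 0.05.

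Col4a1, the alpha-1 chain, lies head to head with Col4a2 on chromosome 8 (11198423 to 11312889). In the usual basement membrane molecule alpha-1 chains outnumber alpha-2 chains. Here Col4a1 was at 1.6, 2.2 and 1.8 TPM in the KO libraries, against 1.3, 0.4 and 0.6 TPM in the WT libraries. Every KO value exceeded every WT value, but WT replicate 1 came within 0.3 TPM of KO replicate 1. Col4a1 was not called (log2 fold change 0.73, SE 0.20, limma adjusted p = 0.0516), and it was called without WT replicate 1 (0.93, adjusted p = 0.019), with a pseudocount of 5 (0.25, adjusted p = 0.048) and with a filter at 0.5 TPM (adjusted p = 0.0491; range over alternatives 0.00467 to 0.187). Per length, Col4a2 exceeded Col4a1 by a ratio of 13.9, 19.1 and 20.3 in the KO libraries, against 3.62, 10.7 and 7.5 in the WT libraries. All 6 libraries held more Col4a2 than Col4a1, and no ratio in WT reached the lowest in KO; the WT ratios rest on Col4a1 values of 0.4 to 1.3 TPM. GENCODE M21 has the pair overlap by 22 bases and places the antisense gene Gm15419 within Col4a2, and the strand setting of the counting is unknown. The other type IV chains hardly appeared: Col4a4 was at 0.1 TPM in all 6 libraries, and Col4a3, Col4a5 and Col4a6 were at 0.

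The promoters of this pair are shown because both genes start near each other and differed in level and in change. RefSeq promoter windows, 250 bases before to 50 after the start on GRCm38.p6, were at hand for 40 of the 55 genes, among them 9 of the 11 tested. The start sites used for the Col4a2 and Col4a1 windows, 11312805 and 11312826, lie 21 bases apart on opposite strands, and the windows share 78 bases. The RefSeq span of Col4a1 given above reaches further, to 11312889, so its start site differs between these sources. The window of Lamb2, another gene called higher, is set beside them. Capitals mark a CCAAT box (CCAAT or its reverse complement ATTGG), a GC box (GGGCGG or CCGCCC) or a TATA box (TATAAA or TTTATA), and each sequence runs 5′ to 3′ on the strand of its gene.
Col4a2 promoter (chr8:11312555-11312854, plus strand): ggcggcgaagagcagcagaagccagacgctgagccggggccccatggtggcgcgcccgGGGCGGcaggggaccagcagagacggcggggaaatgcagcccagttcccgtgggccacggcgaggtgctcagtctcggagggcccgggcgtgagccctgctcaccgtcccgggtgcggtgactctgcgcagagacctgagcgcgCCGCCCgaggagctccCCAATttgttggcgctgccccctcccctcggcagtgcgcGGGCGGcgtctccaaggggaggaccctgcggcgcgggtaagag
Col4a1 promoter (chr8:11312777-11313076, minus strand): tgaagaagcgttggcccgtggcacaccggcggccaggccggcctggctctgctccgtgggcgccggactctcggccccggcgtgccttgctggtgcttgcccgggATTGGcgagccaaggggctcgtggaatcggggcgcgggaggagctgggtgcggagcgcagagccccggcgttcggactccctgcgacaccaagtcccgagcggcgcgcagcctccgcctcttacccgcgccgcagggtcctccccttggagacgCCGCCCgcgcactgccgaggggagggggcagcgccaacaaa
Lamb2 promoter (chr9:108479612-108479911, plus strand): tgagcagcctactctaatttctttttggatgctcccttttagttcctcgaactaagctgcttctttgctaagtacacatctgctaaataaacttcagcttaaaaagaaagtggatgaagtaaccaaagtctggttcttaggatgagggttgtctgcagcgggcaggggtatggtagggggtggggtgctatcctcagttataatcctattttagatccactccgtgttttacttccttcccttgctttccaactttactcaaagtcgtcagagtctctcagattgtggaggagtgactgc

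The Col4a2 window held 1 CCAAT box and 3 GC boxes, and the Col4a1 window held 1 of each. The GC box at 11312812 is the same stretch in both, read from opposite strands. No CCAAT, GC or TATA letters stood in the Lamb2 window. Of all 32851 RefSeq promoter windows of this length, 37.4% held a CCAAT box, 35.7% a GC box and 13.6% a TATA box on either strand, so these letters are common. The dinucleotide CG occurred 33 times in the Col4a2 window, 37 times in the Col4a1 window and 4 times in the Lamb2 window, where the median over all windows was 7. As many as in Col4a1 were found in 5.58% of all windows. Genes called higher in KO thus had windows rich and poor in CG.

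**Figure D3:**
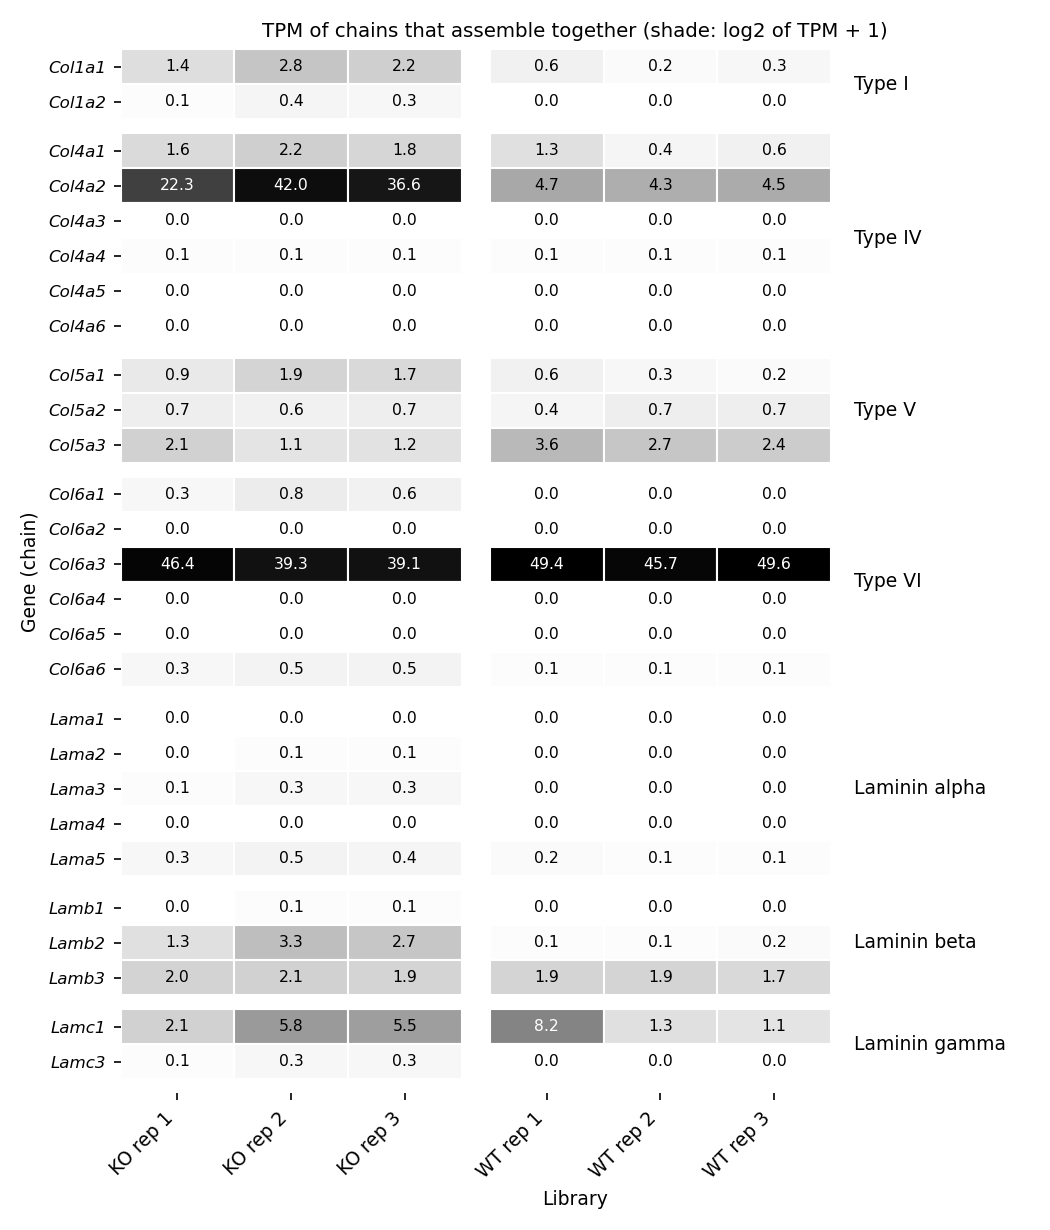
TPM of collagen and laminin chains that assemble together, printed in each cell and shaded by log2 of TPM + 1, with genes down the page and 3 KO and 3 WT libraries across. Col4a2 reaches 42.0 TPM in KO beside Col4a1 at 2.2 TPM or less, and Col6a3 stands at 39.1 to 49.6 TPM while Col6a2 is at 0 in every library.

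Among the fibrillar collagens, Col1a1 and Col11a2 rose. Col1a1 (chromosome 11, 94936224 to 94953042), which encodes the main chain of bone, skin and tendon collagen, was at 1.4, 2.8 and 2.2 TPM in the KO libraries, against 0.6, 0.2 and 0.3 TPM in the WT libraries. The groups did not overlap, and 1 TPM was reached in KO only. The KO mean was 2.13 ± 0.70 TPM and the WT mean 0.37 ± 0.21 TPM (SD, n = 3 each; log2 fold change 1.18, SE 0.20, limma adjusted p = 0.018; range over alternatives 0.00227 to 0.1). Col1a2, its partner chain in type I collagen, was at 0.1, 0.4 and 0.3 TPM in KO and at 0 in all 3 WT libraries, below the level tested. Both chains were lowest in KO replicate 1 among the KO libraries, and Col1a1 exceeded Col1a2 in every library.

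Col11a2 (chromosome 17, 34038919 to 34066684), a chain of the cartilage collagen XI, was at 5.2, 6.7 and 6.3 TPM in the KO libraries, against 4.7, 4.1 and 3.9 TPM in the WT libraries. This was a small shift of a gene already present in WT, and KO replicate 1 lay 0.5 TPM above WT replicate 1. Its change on the log2 scale was 0.43 (SE 0.11, limma adjusted p = 0.0425; range over alternatives 0.00328 to 0.162). With quantile normalization it was not called (0.23, adjusted p = 0.103). Its usual partners Col2a1 and Col11a1 were at 0.1 TPM or less and at 0.

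The type V chains, which set the width of collagen fibrils, did not move together. Col5a1 was at 0.9, 1.9 and 1.7 TPM in the KO libraries, against 0.6, 0.3 and 0.2 TPM in the WT libraries, with no overlap, and missed the level for testing. Col5a3 (chromosome 9, 20770050 to 20815117) was at 2.1, 1.1 and 1.2 TPM in the KO libraries, against 3.6, 2.7 and 2.4 TPM in the WT libraries. Its KO values all lay below its WT values, and KO replicate 1 was the KO library nearest to WT. Col5a3 was not called (log2 fold change -0.67, SE 0.19, limma adjusted p = 0.0539), but it was called lower without KO replicate 1 (-0.85, adjusted p = 0.0162; range over alternatives 0.00357 to 0.189). Col5a2 stayed between 0.6 and 0.7 TPM in KO and between 0.4 and 0.7 TPM in WT. The other fibrillar genes, Col3a1, Col24a1 and Col27a1, were at 0.1 TPM or less.

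Type VI collagen, a beaded filament that surrounds cells, was represented almost entirely by 1 chain. Col6a3 (chromosome 1, 90766860 to 90844001) was the highest of the 55 genes in 5 of the 6 libraries, at 46.4, 39.3 and 39.1 TPM in the KO libraries, against 49.4, 45.7 and 49.6 TPM in the WT libraries; in KO replicate 2 Col4a2 was higher. KO replicate 1 lay within the WT values and the other KO libraries below them. Col6a3 was not called (log2 fold change -0.21, SE 0.08, limma adjusted p = 0.111) and was called lower without KO replicate 1 (-0.29, adjusted p = 0.0216; range over alternatives 0.0145 to 0.323). Col6a1 and Col6a2, the chains that normally assemble with it, did not follow: Col6a2 was at 0 in all 6 libraries, and Col6a1 was at 0.3, 0.8 and 0.6 TPM in KO and at 0 in WT. Col6a6 was at 0.3, 0.5 and 0.5 TPM in KO and at 0.1 TPM in each WT library, and Col6a4 and Col6a5 were at 0. Col6a3 and Col4a2 together made up 66.7% to 71.8% of the summed TPM of the 55 genes in KO and 65.0% to 74.8% in WT.

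Among the laminins, Lamb2 rose. Lamb2, a beta chain of nerve, muscle and kidney basement membranes (chromosome 9, 108479847 to 108490530), was at 1.3, 3.3 and 2.7 TPM in the KO libraries, against 0.1, 0.1 and 0.2 TPM in the WT libraries. The groups were widely separated, and KO replicate 1 was again the lowest KO library. Lamb2 had a log2 fold change of 1.55 (SE 0.23, limma adjusted p = 0.0151; range over alternatives 0.000866 to 0.0911), on a scale that understates the change of so weak a gene. With a pseudocount of 0.5 it was 2.15, and with 0.1 it was 3.37, where Col4a2 had 2.83. The KO mean of Lamb2 was 18.2 times its WT mean, a ratio that rests on WT values of 0.1 to 0.2 TPM. Lamb3, a beta chain of skin laminin, was at 2.0, 2.1 and 1.9 TPM in KO and 1.9, 1.9 and 1.7 TPM in WT and was not called (log2 fold change 0.08, and -0.26 under quantile normalization; limma adjusted p = 0.487). GENCODE M21 places Lamb3 across Hsd11b1 on the opposite strand, which was at 16.0, 34.4 and 31.4 TPM in KO and 6.9, 5.0 and 5.5 TPM in WT. GENCODE M21 starts Lamb3 at 193207699 and RefSeq at 193294353, and overlap with the shorter RefSeq model was not checked. The annotation and strand setting of the counting are unknown here, so the Lamb3 level is uncertain.

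Lamc1, the most widely used gamma chain, was at 2.1, 5.8 and 5.5 TPM in the KO libraries, against 8.2, 1.3 and 1.1 TPM in the WT libraries. WT replicate 1 was the highest of all 6 libraries, and the other WT libraries the lowest. Lamc1 was not called (log2 fold change 0.54, SE 0.63, limma adjusted p = 0.564), and the call depended on the libraries that stood apart: without KO replicate 1 and WT replicate 1 it was called higher, by 1.597 (adjusted p = 0.00128; range over alternatives 0.00128 to 0.892). The neutrophil collagenase gene Mmp8 was at 0.1, 0.4 and 0.7 TPM in KO and 7.4, 0.1 and 0.0 TPM in WT, and the gelatinase gene Mmp9 at 1.5, 1.9 and 1.9 TPM in KO and 14.9, 0.8 and 1.0 TPM in WT. WT replicate 1 was the highest library for both, and whether this bears on its Lamc1 value was not tested.

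No laminin alpha chain reached 1 TPM in any library, although a laminin needs one. Lama5 was at 0.3, 0.5 and 0.4 TPM in KO and 0.2, 0.1 and 0.1 TPM in WT. Lama3 was at 0.1, 0.3 and 0.3 TPM in KO and at 0 in WT, as was the gamma chain gene Lamc3, with the same values. Lama2 and Lamb1 did not exceed 0.1 TPM, and Lama1 and Lama4 were at 0 throughout. Lamc1 and Lamb3 were listed at higher TPM than any alpha chain in every library.

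Collagens that sit on fibrils or in cell membranes changed little or stayed low. Col19a1 was at 3.5, 4.2 and 3.9 TPM in KO and 3.0, 3.4 and 3.3 TPM in WT (log2 fold change 0.20, and -0.066 under quantile normalization; limma adjusted p = 0.144). Col20a1 was at 3.0, 3.6 and 3.4 TPM in KO and 2.7, 2.4 and 2.2 TPM in WT. Neither gene's groups overlapped, but Col20a1 was not called either (log2 fold change 0.34, SE 0.09, limma adjusted p = 0.0547), and it was called without WT replicate 1 (adjusted p = 0.0284), without KO replicate 1 (0.0357) and without a variance trend (0.045; range over alternatives 0.00746 to 0.675, the highest under quantile normalization). Both genes thus had levels of 2 to 5 TPM in all 6 libraries. Col15a1, a collagen of basement membrane zones, was at 0.6, 0.9 and 0.6 TPM in KO and at 0.3 TPM in each WT library. Of the membrane collagens, Col17a1 was at 0.1, 0.3 and 0.2 TPM in KO and at 0 in WT, and Col23a1 at 0.2, 0.3 and 0.3 TPM in KO and 0.1, 0.0 and 0.0 TPM in WT. Col10a1, the collagen of growth plate cartilage, was at 0.2 TPM in each KO and 0.3 TPM in each WT library. It lies across Nt5dc1 on the opposite strand, which was at 35.7, 28.4 and 27.1 TPM in KO and 38.4, 36.7 and 38.6 TPM in WT, so its value is uncertain.

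**Figure D4:**
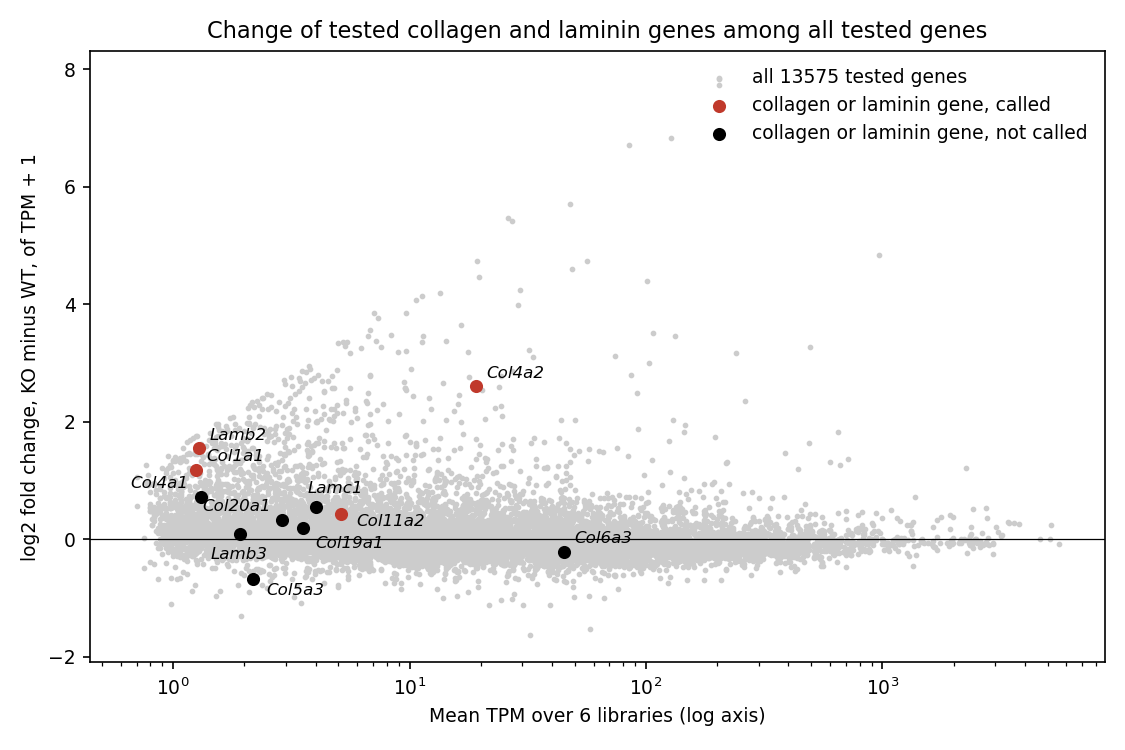
Log2 fold change of TPM + 1, KO minus WT (vertical axis), against the mean TPM over 6 libraries (log axis), for all 13575 tested genes (grey) and the 11 tested collagen and laminin genes (red where called, black where not). Col4a2 stands at 2.61, Lamb2 at 1.55 and Col1a1 at 1.18, while Col5a3 and Col6a3 lie below 0.

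Below the level tested, 22 genes were above 0 in at least 1 library. Of these, 10 had every KO value above every WT value (45.5%), as had 22.4% of all untested genes that were above 0 in a library. Among the 22, 10 were above 0 in KO libraries only and could not separate downward, so this share is no measure of the set. The genes with every KO value above every WT value were Col5a1, Col1a2, Col6a1, Col6a6, Col15a1, Col17a1, Col23a1, Lama3, Lama5 and Lamc3. In 5 of them, Col1a2, Col6a1, Col17a1, Lama3 and Lamc3, every WT library was at 0 and every KO library above 0 (9.09% of the 55 genes, where 2.66% of all listed genes showed this). The opposite pattern was seen for 0 of the 55, and for 0.0446% of all listed genes. Among the 22, only Col10a1 had every KO value below every WT value, as had 0.645% of untested genes above 0. The highest KO value in these 5 genes was 0.8 TPM, so a step of 0.1 TPM is a large part of each value. Another 5, Col2a1, Col3a1, Col26a1, Lama2 and Lamb1, were at 0.1 TPM in 1 or 2 of the KO libraries and at 0 elsewhere. Col7a1, Col8a1, Col9a3 and Col18a1 lay between 0 and 0.5 TPM, with overlapping groups.

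The KO libraries differed among themselves in a regular way. Of the 17 genes whose KO values all exceeded their WT values, 16 had their lowest KO value in replicate 1 and 1 had it tied there (Col15a1). This was not counted for all listed genes with such a separation. KO replicate 1 stood apart across all tested genes as well, so the order is no trait of this set. Taking the distance of KO replicates 2 and 3 from the WT mean as 100%, KO replicate 1 had covered a median of 42.9% of it over these 17 genes, and 50.7% over the 1745 genes called higher in the whole comparison. The former were chosen by non-overlap and the latter by limma calls, so the medians are not like for like. The share covered was 51.1% for Col4a2, 40.7% for Lamb2, 48.4% for Col1a1 and 42.6% for Col11a2. Chaf1b itself was 17.7 TPM in KO replicate 1 and 14.4 and 14.2 TPM in KO replicates 2 and 3. What part the remaining Chaf1b transcript has in these values was not tested.

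Genes that process, bind or remove collagen and laminin were described as 4 lists, chosen with earlier results of these data known. Of their 40 tested genes 7 were higher and 1 lower, beside 12.9% and 6.11% of all tested genes. Of the 7, Fkbp10, Fbln2, Tinagl1 and Bcam entered the test through KO values alone. Itga1 reached 1 TPM in every KO library, but in WT in replicate 1 only. The count is therefore no measure of the lists. Of 17 tested genes for collagen processing, 2 were higher and 0 lower. Fkbp10, a folding enzyme of the endoplasmic reticulum that acts on collagen, rose to 2.30 ± 0.50 TPM in KO, against 0.53 ± 0.06 TPM in WT (SD, n = 3 each; log2 fold change 1.10, limma adjusted p = 0.0125), and P3h1, which hydroxylates prolines of collagen, to 9.10 ± 0.17 TPM in KO, against 7.17 ± 0.74 TPM in WT (0.31, adjusted p = 0.0457). Other genes of this list were high in both groups and not called. The means were 1717 TPM in KO and 1676 TPM in WT for P4hb, 758.8 and 725.8 TPM for Ppib, and 197.7 and 207.7 TPM for Colgalt1. Bmp1 and Adamts2, which trim the ends of procollagen, and Lox, which crosslinks collagen, were at 0 in all 6 libraries. Of their relatives in the list, Adamts14 was at 0.1, 0.1 and 0.2 TPM in KO and at 0 in WT, and Loxl3 was at 45.4, 49.9 and 46.1 TPM in KO and 43.6, 46.9 and 44.2 TPM in WT. Serpinh1, the collagen chaperone, was at 0.0, 0.1 and 0.1 TPM in KO and at 0 in WT.

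Among 5 tested partners of the basement membrane, 2 were higher and 0 lower. Fbln2, which binds laminin and other matrix proteins, rose to 2.5, 5.0 and 4.2 TPM in KO, against 0.4, 0.3 and 0.4 TPM in WT (log2 fold change 1.81, limma adjusted p = 0.0118), and Tinagl1 to 1.9, 3.7 and 2.9 TPM in KO, against 0.9, 0.4 and 0.5 TPM in WT (1.25, adjusted p = 0.0176). Nid1, which links laminin to type IV collagen, was at 0.3, 0.8 and 0.6 TPM in KO and at 0 in WT, below the level tested, while Hspg2 (perlecan) and Sparc were at 0 throughout. Of 8 tested receptors, 2 were higher and 1 lower. Bcam, a receptor for laminins that contain the alpha-5 chain, rose to 5.2, 12.6 and 10.7 TPM in KO, against 0.6, 0.2 and 0.3 TPM in WT (log2 fold change 2.88, limma adjusted p = 0.0113), and Itga1, the alpha subunit of a collagen-binding integrin, to 1.5, 2.9 and 2.5 TPM in KO, against 1.1, 0.6 and 0.5 TPM in WT (0.92, adjusted p = 0.0334). Itga6, the alpha subunit of laminin-binding integrins, fell to 15.9, 15.1 and 14.5 TPM in KO, against 24.7, 19.3 and 18.6 TPM in WT (-0.43, adjusted p = 0.0467). Of 10 tested genes for breakdown of the matrix, 1 was higher, the neutrophil elastase gene Elane, and 0 lower.

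Markers of other cell types, most of them makers of collagen and laminin, were set beside these values. Of all tested genes 12.9% were called higher. Fbn1, Mgp, Flt1, Cdh1 and Pf4 entered the test through KO values alone, so the counts of called markers are no measure of the lists. Of 15 stromal markers, 3 of 6 tested were higher (Fbn1, Acta2 and Thy1), and their summed TPM was 66.8 to 132.3 in KO and 28.7 to 42.5 in WT. Acta2 alone was at 36.8, 95.3 and 82.0 TPM in KO and 20.7, 13.6 and 12.9 TPM in WT. The defining fibroblast genes Dcn, Lum, Postn, Bgn and Dpt were at 0 in all 6 libraries, and Pdgfra was at 0.1 TPM or less. Of 12 endothelial markers, 1 of 2 tested was higher (Flt1), with sums of 68.1 to 76.5 TPM in KO and 61.8 to 80.2 TPM in WT, nearly all from Pecam1, which leukocytes also express. Kdr, Tek, Emcn and Robo4 were at 0, while Cdh5 was at 0.5, 1.5 and 1.3 TPM in KO and at 0 in WT. Of 10 epithelial markers the 1 tested, Cdh1, was higher, with sums of 2.2 to 4.7 TPM in KO and 0.4 to 1.1 TPM in WT, and Krt5, Krt14, Ocln and Esrp1 were at 0. Of 11 megakaryocyte markers, 2 of 4 tested were higher (Pf4 and Gp1bb), with sums of 28.5 to 57.0 TPM in KO and 9.2 to 19.7 TPM in WT, and Gp6 and Treml1 were at 0. The part of these cell types in the collagen and laminin values was not tested.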

How the data were processed

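The 6 RNA libraries, 3 KO and 3 WT, were grouped by the titles in their labels. They were stranded and poly(A)-selected, with 100 bp paired reads and a nominal 120 M reads each, per the labels' protocols. The submitters' processing notes name Trim Galore 0.4.2, cutadapt 1.9.1, STAR 2.6.1e, featureCounts 1.6.2 and the mm10 build. No source used here gives the annotation, the strand setting or the step to TPM. The authors deposited TPM to 1 decimal, with sums of 999924 to 999935 per library; the files used here hold TPM only, so no count model was used and counting error is unknown. The header of WT replicate 1 alone has a replacement note, which no source used here explains.

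Tested genes had 1 TPM or more in 3 or more libraries. The fit, by limma 3.58.1 under R 4.3.3, used log2(TPM + 1), genotype alone as a term and eBayes with a trend. P-values are two-sided and Benjamini-Hochberg adjusted over 13575 genes. The fit was tested on simulated data. Named were all tested genes of the set, untested ones that reached 1 TPM or whose groups did not overlap, and called genes of the related lists. Other genes were named after their values were seen. These were Mmp8, Mmp9, Nid1, Loxl3, P4hb, Ppib, Colgalt1, Hsd11b1, Nt5dc1, the other genes at or near 0 and the markers that were not called. The gene set and lists were chosen with earlier results of these data known. Alternatives changed the pseudocount, filter, scaling, variance model and libraries. Names and positions came from RefSeq (GRCm38.p6) and overlaps from GENCODE M21, where all 55 symbols matched. A member of the set that is counted but not named is not reported here.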

Additional observations from a re-analysis of the deposited data

How the results depend on the processing

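The count of genes called over the whole table was 2575 and depended on single libraries: it ranged from 0 to 4850 when 1 library was left out, at 0 without KO replicate 3 (limma; 3381 at an unadjusted p under 0.05), 25 without WT replicate 2, 15 without WT replicate 3, 109 without KO replicate 2 and 4850 without WT replicate 1. It was 7569 without KO replicate 1 and WT replicate 1 together and 1578 with a mean of at least 5 TPM. Collagen and laminin genes called higher, 4 in the report, ranged from 0 (without KO replicate 3, WT replicate 2 or WT replicate 3) to 6 (without WT replicate 1, where 21.6% of all tested genes were higher), and those called lower from 0 to 2 (without KO replicate 1, where 11.9% were lower). With KO replicate 1 and WT replicate 1 both left out, 8 were higher and 2 lower, beside 28.4% and 27.3% of all tested genes. Without a filter on low values 9 of 33 tested were higher and 1 lower, Col10a1, beside 11.9% and 2.91% of all genes. At 0.5 TPM in 3 libraries 7 of 14 were higher (14.5% of all genes), and at a mean of 5 TPM 1 of 3 (8.79%). Lamb2 and Col15a1 passed the filter at 0.5 TPM, and Col6a1 was tested without a filter, through KO values alone. The counts under these looser filters are therefore no measure of the set. Quantile normalization called 1 lower and turned the log2 fold changes of Col19a1 (-0.066) and Lamb3 (-0.26). Quantile normalization moved the share of all calls that were higher from 67.8% to 43.9%, median-ratio scaling to 60.6%, a mean of 5 TPM to 56%, and no filter to 80.4%. The cause of each of these differences was not tested.

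With the replicate number as a block, 333 genes were called, among them 1 collagen or laminin gene, Col4a2 (limma adjusted p = 0.0445). Of the related lists 4 genes were then higher and 0 lower, beside 2.21% and 0.243% of all tested genes. Deviations of same-numbered KO and WT libraries from their group means had r of -0.199, -0.145 and -0.164 across tested genes. For differently numbered libraries r ranged from -0.2063 to 0.2315. Deviations from a group mean cancel within the group, so these r cannot decide whether same-numbered libraries shared a culture or batch. Related list genes called higher, 7 in the report, ranged from 0 to 17 when 1 library was left out, and those called lower from 0 to 1. The 17 came without WT replicate 1, where 21.6% of all tested genes were higher. The counts were 22 higher and 3 lower without KO replicate 1 and WT replicate 1, beside 28.4% and 27.3% of all tested genes. Without a filter they were 18 and 0, beside 11.9% and 2.91%. At a mean of 5 TPM 1 was higher, beside 8.79%. The 1 called lower became 0 with a pseudocount of 5 and without a variance trend, 2 with median-ratio scaling and 3 with quantile normalization. Chaf1b had a log2 fold change of -1.72 to -1.57 with 1 library left out, and it lost its call without KO replicate 3 (-1.57, adjusted p = 0.0698). Non-overlapping collagen and laminin genes, chosen as a measure to vary after seeing the data, numbered 23 higher and 3 lower without KO replicate 1, 18 and 2 without WT replicate 1, and 24 and 3 without both, when 20.6%, 20.7% and 25.8% of all listed genes did so upward and 11.7%, 12.8% and 16.1% downward. Collagen and laminin genes at or above the threshold stayed more numerous in KO at 0.5 TPM (14, 18 and 16, against 11, 9 and 10) and 2 TPM (8, 10 and 8, against 7, 6 and 6). The same held for all listed genes. At 0.5 TPM or more were 41.6%, 43.7% and 43.0% of them in KO, against 39.5%, 39.2% and 39.3% in WT. At 2 TPM or more were 34.0%, 35.2% and 34.6% in KO, against 32.9%, 32.6% and 32.5% in WT. Since TPM holds no depth, values near 0.1 TPM cannot be given an error.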
